A study of Mus musculus with 4 samples.

Results

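The genes described here encode glutamate receptors and the scaffold proteins that hold them at the postsynaptic side of excitatory synapses, and they were examined for regions bound by REST in mouse embryonic stem cells (ESCs). They were chosen by name: 17 ionotropic receptor subunits, 7 metabotropic receptors and 10 scaffolds, 34 genes of the 22219 protein-coding genes of the annotation, all of which were found in it. For each gene, the bound regions with a midpoint within 20 kb of any transcription start site (TSS) of its protein-coding transcripts were taken, 14 of the 2504 regions in all, and the nearest region was recorded where no such region was listed. The sample was a REST chromatin immunoprecipitation (ChIP) from wild type ESCs of the line N6 (strain C57BL/6), which were grown with leukemia inhibitory factor on irradiated mouse embryonic fibroblasts and then passaged on gelatin to remove these feeders. Crosslinked chromatin was precipitated with a rabbit antibody raised against a peptide of the C-terminal part of REST. DNA from repeated precipitations of separate biological replicates went into 1 pooled library. No spread between replicates can therefore be given, and every value below is a description of that library. The other 3 of the 4 samples of the series, namely the H3K27me3 ChIPs of N6 cells and of the REST knockout line N8 and the input DNA, were not analysed here. The list gives a position and a rank for each region, with rank 1 for the most enriched. The reads behind a region are unknown, and a list of regions holds no expression with which to check the cell type against markers.

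REST is a zinc finger repressor that is abundant in stem cells and non-neuronal cells, where it binds a DNA element termed RE1 and recruits histone deacetylases and other corepressors to genes of mature neurons. Glutamate is the main excitatory transmitter of the brain. AMPA, kainate and NMDA receptors are tetrameric ion channels opened by it, the metabotropic receptors signal through G proteins, and the MAGUK, Shank and Homer proteins link these receptors to each other and to the cytoskeleton.

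The RE1 sequences found in the regions are printed first, because the comparisons between genes below turn on them. The RE1 consists of 9 bases on the left and 10 on the right, termed the left and right elements, with 2 free bases (N) between them. Its letters, TTCAGCACCNNGGACAGCGCC, were read from the best-scoring matches among the 2490 regions that are not near these genes. Regions that matched poorly were left out of this count. A match with at most 5 mismatches over the 19 defined bases, on either strand, is called a full RE1. Of the 14 regions, 11 held 1 full RE1 each and none held several. Each is given 5′ to 3′ on the strand of the match, with bases equal to the RE1 letters in capitals and all others, including the free bases, in lower case. The first name is that of the gene, and Shank2 has 2 regions with a full RE1.
Grin1: TTCAGCACCtcGGACAGCaCC
Gria2: TTtAGCACCgcGGACAGCGCt
Grik3: TTCAGCACCacGGAgAGCGgC
Shank2, 10.117 kb downstream: TTCAGCACCatGGACAGaGga
Grm5: TTCAGCACCttGGACAGgtaC
Dlg4: TTCAGaACCtgGGACAGCaaC
Grin2c: TcCAGCACCttGaACAGCaCC
Grik4: TcCAGgACCttGGACAGtGCt
Grin3a: TTCAGaACCgtGGACAGtGat
Grid1: TcagGtACCctGGACAGCtCC
Shank2, 15.235 kb upstream: cTaAGtACCacGGACAGCtCt

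The other 3 regions held parts of an RE1. In the Grm2 promoter the left element was complete and the right element had 1 mismatch, but 7 bases lay between them in place of 2. The regions in Dlg2 and upstream of Grik3 held a right element with 1 mismatch and no left element within reach, and these right elements were the same 10 bases.
Grm2, both elements 7 bases apart: TTCAGCACCacactgtGGACAGCtCC
Dlg2, right element: GGACAGCtCC
Grik3, right element of the upstream region: GGACAGCtCC

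REST regions lay within 20 kb of a TSS of 12 of the 34 genes (35.3%, exact Clopper-Pearson 95% interval 19.7 to 53.5%), against 8.20% of all protein-coding genes. These were Gria2, Grik3, Grik4, Grin1, Grin2c, Grin3a and Grid1 among the ionotropic subunits (7 of 17), Grm2 and Grm5 among the metabotropic receptors (2 of 7), and Dlg2, Dlg4 and Shank2 among the scaffolds (3 of 10). At shorter range the count was 5 of 34 within 5 kb (14.7%, 4.95 to 31.1%, against 3.57% of all genes), namely Gria2, Grin1, Grin3a, Grid1 and Grm2, and 3 of 34 within 1 kb (8.82%, 1.86 to 23.7%, against 1.67%), namely Gria2, Grin1 and Grm2. No scaffold gene had a region within 5 kb (0 of 10, interval to 30.8%, which includes the 3.57% of all genes). The region of Dlg2 missed this limit narrowly, at 5.036 kb. The intervals cover counting over genes only. The genes were chosen with earlier results of these data known, so these shares are a description and no independent evidence of enrichment. Genes with several TSSs have more sequence in reach, and 4 of the 34 genes had 1 TSS only. Of all protein-coding genes, 6.79% of those with 1 TSS and 13.1% of those with 5 or more had a region. Among the 34 genes these counts were 3 of 4 and 2 of 6. The part of TSS number in the share was not tested. The windows of the 34 genes together spanned 2.19 Mb and held 6.38 regions per Mb, against 1.78 per Mb in the windows of all protein-coding genes and 0.943 per Mb over all chromosomes.

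**Figure D1:**
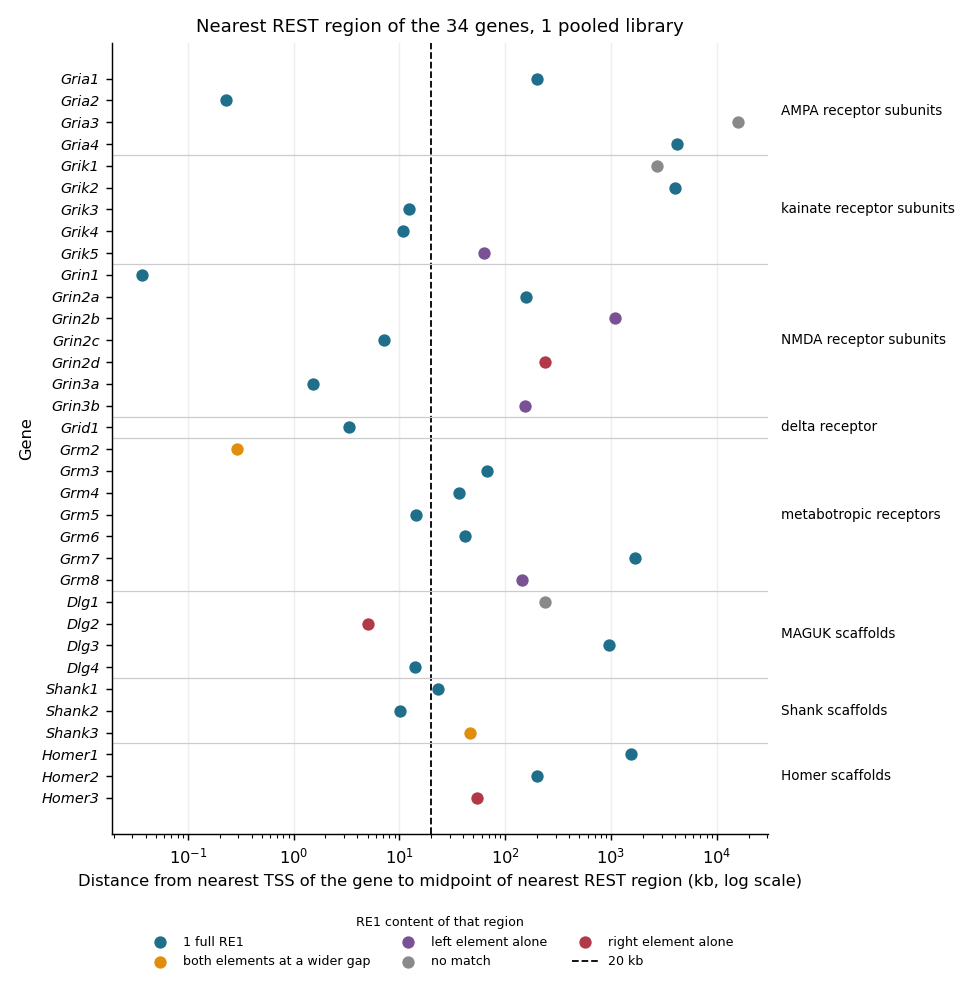
Distance in kb, on a log scale, from the nearest TSS of each of the 34 genes to the midpoint of its nearest REST region, with genes grouped by family and coloured by the RE1 content of that region. The dashed line marks 20 kb, and distances run from 0.037 kb at Grin1 to 15900 kb at Gria3.

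Among the AMPA receptor subunits, which carry most fast excitatory transmission, Gria2 alone had a region in reach. Gria2 encodes the subunit whose edited transcript makes AMPA receptors impermeable to calcium. Its region (chr3:80606800-80607084, mm9) had rank 1145 and lay in the promoter, with its midpoint 0.229 kb upstream of the only annotated TSS (position 80606713, minus strand). The RE1 printed above, with 2 mismatches, occupied bases 80606911 to 80606931 on the plus strand, opposite to the gene, and its centre was 0.208 kb from the TSS. The nearest regions of the other AMPA subunit genes were 199.035 kb from Gria1, 4186.3 kb from Gria4 and 15899.349 kb from Gria3 on chromosome X. The region nearest to Gria1 lay upstream in intergenic sequence, had rank 1438 and held a full RE1 with 2 mismatches.

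Kainate receptor subunits, which act on both sides of the synapse, had regions at 2 of 5 genes, Grik3 and Grik4. Grik3, which encodes a subunit of low glutamate affinity, had 2 regions in reach. The first (chr4:125180190-125180485) had rank 267 and was intronic, 12.393 kb downstream of the TSS, with an RE1 of 2 mismatches at bases 125180307 to 125180327 on the strand of the gene. The second (chr4:125150368-125150569) had rank 1830, lay 17.476 kb upstream in intergenic sequence and was the one with a right element alone. Of the 34 genes 2 had 2 or more regions within 20 kb, Grik3 and Shank2, against 0.918% of all protein-coding genes. Grik4 encodes a high-affinity subunit that forms channels together with subunits of the Grik1 to Grik3 group. Its region (chr9:42627433-42627654) had rank 1278 and lay in an intron, 10.81 kb upstream of its nearest TSS, which is the downstream one of 2, with an RE1 of 4 mismatches. The nearest regions were 63.479 kb away for Grik5, 2721.924 kb for Grik1 and 4031.254 kb for Grik2.

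NMDA receptor subunits form the channels that act as coincidence detectors in synaptic plasticity, and 3 of the 7 genes had a region. Grin1 encodes the obligatory subunit of every NMDA receptor. Its region (chr2:25174449-25174707) had rank 875 and overlapped the 5′ UTR, with the midpoint 0.037 kb downstream of a TSS, the shortest distance among the 34 genes. It held the RE1 with fewest mismatches among the 14 regions, 1 of 19 bases, at bases 25174534 to 25174554 on the minus strand, that of the gene. Grin3a, which encodes a glycine-binding subunit of juvenile receptors, had a region (chr4:49856778-49857020) of rank 1478, which was intronic and lay 1.522 kb downstream of the TSS, with an RE1 of 4 mismatches. Grin2c, which encodes a glutamate-binding subunit of cerebellar granule cells, had a region (chr11:115119534-115119742) of rank 1995, which lay over a coding exon 7.105 kb downstream, with an RE1 of 3 mismatches on the opposite strand. The other glutamate-binding subunit genes had their nearest regions farther off, Grin2a at 155.775 kb inside its own intron, Grin2d at 236.921 kb and Grin2b at 1078.658 kb. For Grin3b the distance was 153.881 kb.

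Grid1 encodes a delta receptor, a subunit related to the ionotropic receptors that works as an adhesion protein at synapses. Its region (chr14:35629526-35629798) had rank 530, the third best rank of the 14, and lay 3.349 kb upstream in intergenic sequence. The RE1 in it had 5 mismatches, 4 of them in the left element and 1 in the right.

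Of the metabotropic receptors, Grm2 and Grm5 had a region in reach. Grm2 encodes a presynaptic receptor that lowers transmitter release. Its region (chr9:106558542-106558916) had rank 206, the best of the 14, and was also the widest at 374 bp. It lay in the promoter, 0.289 kb upstream of the only TSS (position 106558440, minus strand), and the pair of elements with the 7-base gap was at bases 106558657 to 106558682 on the strand of the gene. No full RE1 was present, since the best match at the 2-base spacing had 6 mismatches. Grm5, whose receptor couples to phospholipase C and binds Homer, had a region (chr7:94736592-94736821) of rank 1655 that lay 14.246 kb upstream in intergenic sequence, with an RE1 of 3 mismatches on the strand of the gene. The nearest regions of the other receptors were 36.442 kb from Grm4 in its own intron, 41.701 kb from Grm6, 66.75 kb from Grm3, 143.883 kb from Grm8 in its own intron and 1698.206 kb from Grm7. The region nearest to Grm7 had rank 198 and lay at Lhfpl4.

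MAGUK scaffolds bind receptor tails through PDZ domains, and 2 of the 4 genes had a region. Dlg4 encodes PSD-95, the most abundant of them at excitatory synapses. Its region (chr11:69857234-69857511) had rank 905 and was intronic, at 14.053 kb downstream from the nearest TSS of Dlg4, with an RE1 of 3 mismatches on the strand of the gene. The TSS nearest to this region was not that of Dlg4 but that of Asgr1, a receptor gene of hepatocytes (signed distance -10.215 kb, that is, upstream), and it was the only one of the 14 regions for which the nearest TSS belonged to another gene. Dlg2, which encodes PSD-93, spans 1945.041 kb and has 9 TSSs. Its region (chr7:98416352-98416607) had rank 862 and was likewise intronic, 5.036 kb past one of these, with the right element at bases 98416476 to 98416485. The nearest regions of Dlg1 and Dlg3 were 238.165 kb and 948.045 kb away.

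Shank proteins join the MAGUK complexes to Homer and actin, and 1 of the 3 genes had regions in reach. Shank2 had a region of rank 883 (chr7:151480258-151480557) 10.117 kb downstream of one of its 4 TSSs and a region of rank 2137 (chr7:151346097-151346283) 15.235 kb upstream of another, both in introns and both with an RE1 on the strand opposite to the gene, of 3 and 5 mismatches. Shank1 was the gene just outside the limit, with a region of rank 1164 in its intron at 23.148 kb. Among the regions counted, the farthest from a TSS were those of Grik3 at 17.476 kb and Shank2 at 15.235 kb. For Shank3 the nearest region was 46.097 kb away and had rank 81, but it lay in the promoter of Mapk8ip2. None of the 3 Homer genes, whose products bind group I metabotropic receptors and Shank, had a region in reach. The distances were 54.561 kb for Homer3, 199.475 kb for Homer2 and 1536.789 kb for Homer1. Over the 34 genes the median distance to the nearest region was 59.0 kb (quartiles 11.2 and 238 kb), against 284 kb (92.0 and 841 kb) over the 22202 genes on chromosomes with a region.

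**Figure D2:**
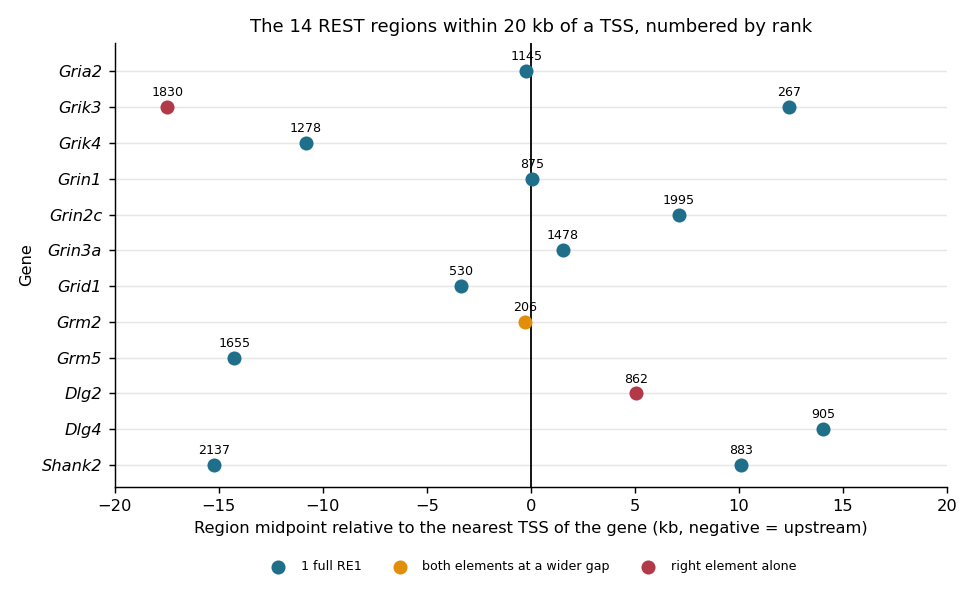
Position in kb of the midpoints of the 14 REST regions relative to the nearest TSS of each gene, drawn in the direction of transcription with upstream to the left. Each point is 1 region, labelled with its rank and coloured by RE1 content, and 7 regions lie upstream and 7 downstream.

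The 14 regions had ranks of 206 to 2137 with a median of 1025, against a median of 1252.5 for all 2504 regions and 1174 for the 1331 regions within 20 kb of any protein-coding TSS. Among the 1252 regions of higher rank were 8 of the 14 (57.1%), near the 53.1% of the 1331 regions. These 8 regions belonged to 8 genes (23.5% of the 34, 10.7 to 41.2%, against 4.46% of all genes). Such gene shares also depend on having any region within 20 kb, as 35.3% of the 34 and 8.20% of all genes did. By annotation, 2 of the 14 lay in promoters, 1 in a 5′ UTR, 1 in a coding exon, 7 in introns and 3 in intergenic sequence. For the 1331 regions the numbers were 187, 66, 99, 523 and 402 in the same order, with the rest in 3′ UTRs or other exons. Median width was 256.5 bp, against 264 bp for all regions, and median GC content was 50.9%, against 51.6%. The 14 regions ranged over 186 to 374 bp and 39.7 to 69.2% GC, and both medians of the full list fall inside these ranges.

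A full RE1 was present in 11 of the 14 regions (78.6%, 49.2 to 95.3%), against 1454 of all 2504 regions (58.1%, 56.1 to 60.0%) and 54.2% of the 1331 regions within 20 kb of a TSS. The interval of the 14 regions includes both of these shares. At the stricter limit of 3 mismatches the count was 7 of 14 (50%, 23 to 77%), against 30.8% of all regions and 28.6% of the 1331. Windows of the same width placed 2 kb to each side held a full RE1 in 2 of 28 cases near these genes and in 46 of 4987 cases for all regions. By genes, a region that held a full RE1 lay within 20 kb of 10 of 34 (29.4%, 15.1 to 47.5%, against 4.49% of all genes).

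The mismatches were not spread evenly along the element. Counting positions from 1 at the 5′ end of the left element, none of the 11 matches departed from the RE1 letters at positions 5, 7, 8, 9, 12, 14, 16 and 17, where 0.55 to 11.4% of the 1454 regions with a full RE1 did so in their best match. Position 19 departed in 6 of 11 (55.1% of the 1454), and positions 6, 20 and 21 in 5 of 11 each (37.1%, 37.8% and 26.3%). Position 18 did so in 4 of 11 (35.3%) and positions 2 and 3 in 3 of 11 each (23.6% and 10.7%). At positions 1, 4, 13 and 15 it was 1 of 11 each (44.4%, 7.43%, 1.86% and 17.7%). The left element was complete in 4 matches, those of Grin1, Grik3, Shank2 (downstream) and Grm5, while the right element was complete in none. Over the 1454 regions these shares were 23.9% and 5.43%. The right element GGACAGCTCC, which differs from the RE1 letters at a single base, occurred in 4 of the 14 regions (Grm2, Grid1, Dlg2 and the upstream region of Grik3; 28.6%, 8.39 to 58.1%), against 18.3% of all regions on either strand. It can form part of a full RE1 and is then counted in both. This element was picked because it was seen in regions of these genes, so its share among the 14 is favoured by that choice. Its first 9 bases, read on either strand, were also the 9-base word most in excess over flanking sequence in the 2490 regions not near these genes. Matches lay near the middle of their regions, with their centres 5 to 37 bases from the midpoint (median 21, against 23 over the 1454). Of the 11 matches 6 ran in the direction of the gene, a share that was not counted over all regions.

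Near the glutamate genes, the median rank was 875 for the 3 regions whose full RE1 had at most 2 mismatches, 1280 for the 4 regions with 3 mismatches and 1378 for the 4 regions with 4 or 5. Over all regions with a full RE1 the corresponding medians were 717, 909 and 1238. Among regions with a full RE1, the median rank number was thus lower, and enrichment higher, for better matches in both sets. Near the glutamate genes this order rests on groups of 3 or 4 regions and was not tested. Individual regions departed from it. Grid1, with 5 mismatches, had rank 530, ahead of Grin1 with 1 mismatch and rank 875. The order did not extend to the regions without a full RE1. Grm2 had the best rank, 206, and Dlg2 had rank 862, both ahead of the median of 875 for the best matches. The upstream region of Grik3, at rank 1830, was behind all 3 medians.

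Many of these genes are long, with a median span of 197 kb against 15.2 kb for all protein-coding genes, and regions in their introns can lie far from any TSS. Beyond the 20 kb limit, 12 further regions lay inside 7 of the genes, all of them in introns. A full RE1 was present in 8 of the 12, against 58.1% of all 2504 regions. Counting these intronic regions, 16 of the 34 genes had a region in the gene or within 20 kb (47.1%, 29.8 to 64.9%, against 9.78% of all genes). The 4 genes that this added were Grin2a, Grm4, Grm8 and Shank1. Per length, the transcribed spans of the 34 genes held 2.01 regions per Mb, against 1.29 per Mb for all protein-coding genes.

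Grik3 held the most regions of the 34 genes, 6 in all, and 6 of the 22219 genes (0.027%) had that many or more. In addition to the 2 regions described above, 4 lay deeper in the gene at 28.364 kb (rank 268), 57.729 kb (rank 1545), 65.902 kb (rank 2222) and 68.924 kb (rank 869) from the nearest TSS. The regions of rank 267 and 268 were adjacent in the list and had the same width of 295 bp. From first to last the 6 regions covered 117.73 kb. The RE1s in the intronic regions are shown because the regions of the gene differ in them. Those of rank 267, 869 and 2222 are mismatched at position 15, as are 17.7% of the 1454 regions with a full RE1 in their best match. The match in Grm4 printed below is also mismatched there.
Grik3, rank 267: TTCAGCACCacGGAgAGCGgC
Grik3, rank 268: TTCAGaACCatGGACAGtGtC
Grik3, rank 869: aTCAGCACCtcGGAgAGCtCC
Grik3, rank 2222: gTCAGCACtagGGAtAGCtCC

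Grik4 had 2 further intronic regions, of rank 480 at 155.702 kb, for which the nearest TSS was that of 9530085L02Rik, with an RE1 of 5 mismatches, and of rank 1088 at 66.582 kb with no element found. Grid1 had a region of rank 566 in its intron, 47.65 kb from the TSS, whose RE1 had 1 mismatch, and so the region with the better match ranked behind the upstream region of rank 530 with 5 mismatches. Grm4, which encodes a presynaptic receptor of the same group as Grm6, Grm7 and Grm8, had a region of rank 694 with an RE1 of 2 mismatches and a region of rank 1440 with a right element alone. In Shank1 the RE1 had 2 mismatches, and in Grin2a (rank 938) it had 5. The intronic region of Grm8 (rank 1082) held a left element alone. The best of these matches, in regions that the TSS limit leaves out, are printed for comparison with those above.
Grid1, rank 566: gTCAGCACCtcGGACAGCGCC
Grm4, rank 694: TTCAGCACCtcGGAgAGCGgC
Shank1, rank 1164: TcCAGCACCgcGGACAGCtCC

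**Figure D3:**
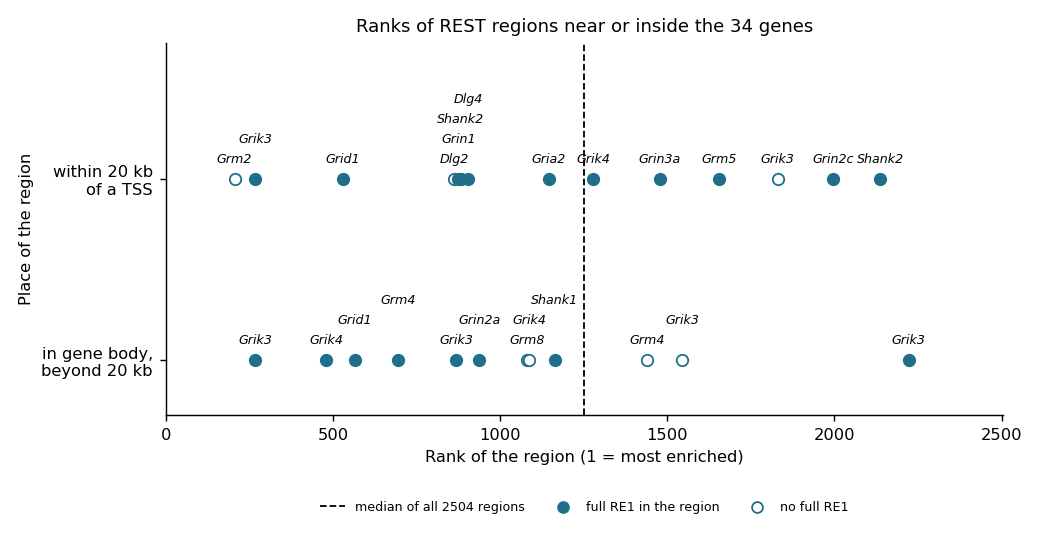
Rank of each REST region near or inside the 34 genes, from 1 (most enriched) to 2504, with the 14 regions within 20 kb of a TSS above and the 12 regions farther inside genes below. Filled points hold a full RE1, open points do not, and the dashed line is the median of all regions at 1252.5.

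The genome was also searched for RE1 matches irrespective of the list, to see whether a gene without a region had an RE1 near its start. Within 20 kb of a TSS of the 34 genes there was no match without mismatch, and 1 of 1 with 1 mismatch, 2 of 2 with 2, 4 of 7 with 3 (57.1%, 18.4 to 90.1%), 2 of 13 with 4 (15.4%, 1.92 to 45.4%) and 2 of 62 with 5 (3.23%, 0.393 to 11.2%) lay in a listed region. Of the matches in the whole genome, 12 of 12 with no mismatch, 84 of 89 with 1, 287 of 334 with 2 (85.9%), 425 of 859 with 3 (49.5%), 416 of 4853 with 4 (8.57%) and 378 of 37519 with 5 (1.01%) did so. All 3 matches near the 34 genes with at most 2 mismatches were thus in regions, those of Grin1, Gria2 and Grik3, and no gene without a region had a match of this quality in reach of its TSS. Within 20 kb of any protein-coding TSS, the shares in a region were 87.1% with 2 mismatches, 54.1% with 3, 10.3% with 4 and 1.33% with 5. The RE1 letters were read from listed regions, which favours high shares at few mismatches in the genome.

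The 3 matches with 3 mismatches that lay in no region were at Grik1, Grik2 and Grm6, genes singled out after these values were seen. They are shown for comparison with the matches of equal mismatch number that were in regions. That of Grik2, which encodes a kainate subunit altered by RNA editing, lay 2.276 kb upstream of a TSS (chr10:49505481-49505501). That of Grm6, the receptor of retinal ON bipolar cells, lay 4.692 kb upstream (chr11:50659485-50659505) and that of Grik1 13.179 kb upstream (chr16:88069590-88069610). The matches of Grik2 and Grik1 were inside their genes, upstream of an inner TSS, whereas that of Grm6 was outside its gene.
Grik2, in no region: TTCAGgACCttGGACAGCaCt
Grm6, in no region: TgCAGCACCtgGGAgAGCGCa
Grik1, in no region: TTCAGtACCctGaACAGtGCC

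Inside the genes and beyond 20 kb, 1 match with 2 mismatches lay in no region, in Grid1 at 128.63 kb from the TSS (chr14:35761631-35761651). Counting gene bodies as well, 6 of 7 matches with at most 2 mismatches were in a region, against 383 of 435 (88.0%) in the genome. Whether reads can be placed at the matches that lay in no region was not tested, and the depth there is unknown.

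**Figure D4:**
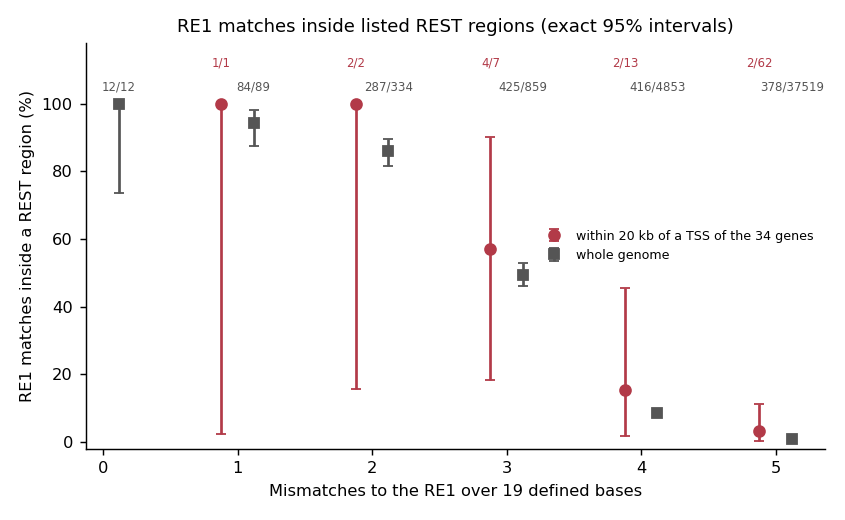
Percentage of RE1 matches that lie inside a listed REST region, by number of mismatches over the 19 defined bases, for matches within 20 kb of a TSS of the 34 genes (circles) and in the whole genome (squares). Bars are exact 95% intervals and the counts stand above, from 1 of 1 near the genes and 84 of 89 in the genome at 1 mismatch to 2 of 62 and 378 of 37519 at 5.

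The other genes of the glutamate synapse, taken from a list of 38, had a region within 20 kb in 13 cases (34.2%, 19.6 to 51.4%), against the 8.20% of all genes given above. Of the auxiliary subunits, which travel with AMPA and kainate receptors and shape their gating, 5 of 12 had a region. The best ranked were Cacng2 (stargazin; rank 8, 0.066 kb from the TSS), Cacng3 (rank 66, 0.748 kb), Cnih2 (rank 195, 10.415 kb, in the promoter of Yif1a) and Cacng5 (rank 254, 5.255 kb). Among scaffold partners and signalling proteins 6 of 18 had one, led by Dlgap3 (rank 71, 0.842 kb) and Dlgap4 (ranks 113 and 127), which encode proteins that bridge MAGUKs and Shanks, then Arc (ranks 487 and 636), an immediate early gene of AMPA receptor removal, and Kalrn (rank 717), a protein of dendritic spines. In the group for transport and supply of glutamate 2 of 8 had one, Slc17a6, a vesicular glutamate transporter (rank 409, 0.098 kb), and Slc1a1, a neuronal uptake transporter (rank 864, 16.549 kb). Of the regions near receptor and scaffold genes, the best rank was 206, whereas Cacng2, Cacng3, Dlgap3, Dlgap4 and Cnih2 each had a region ahead of it.

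Receptors for other transmitters served as the closest comparison. Beside the 12 of 34 glutamate genes (35.3%, 19.7 to 53.5%), GABA and glycine receptor genes had a region within 20 kb in 7 of 21 cases (33.3%, 14.6 to 57.0%), and nicotinic and muscarinic receptor genes in 5 of 18 (27.8%, 9.69 to 53.5%). Together these receptors gave 12 of 39 (30.8%, 17.0 to 47.6%), an interval that overlaps that of the 34 glutamate genes over most of its length. Within 5 kb the counts were 5 of 34 glutamate genes (14.7%, 4.95 to 31.1%) and 11 of 39 compared receptors (28.2%, 15.0 to 44.9%), and within 1 kb they were 3 of 34 (8.82%, 1.86 to 23.7%) and 9 of 39 (23.1%, 11.1 to 39.3%). The intervals overlap at each limit, and the difference between the lists was not tested. The lists also differ in kind, since the 34 genes include 10 scaffolds, of which 0 had a region within 5 kb, and the compared lists hold receptors only. Within 5 kb the ionotropic subunits alone gave 4 of 17 (23.5%, 6.81 to 49.9%) and the metabotropic receptors 1 of 7 (14.3%, 0.361 to 57.9%). Within 1 kb these counts were 2 of 17 (11.8%, 1.46 to 36.4%) and 1 of 7. Of the genes with a region within 20 kb, 5 of 12 glutamate genes had one within 5 kb (41.7%, 15.2 to 72.3%), against 43.6% of all genes with a region (794 of 1822), so the glutamate genes were near the background in this respect. The counts were 7 of 7 for GABA and glycine receptors and 4 of 5 for nicotinic and muscarinic receptors. By rank, 3 genes of these lists had a region ahead of the best of the glutamate genes (rank 206), namely Glra1 (rank 76), Gabrd (rank 90) and Chrnb2 (rank 98).

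**Figure D5:**
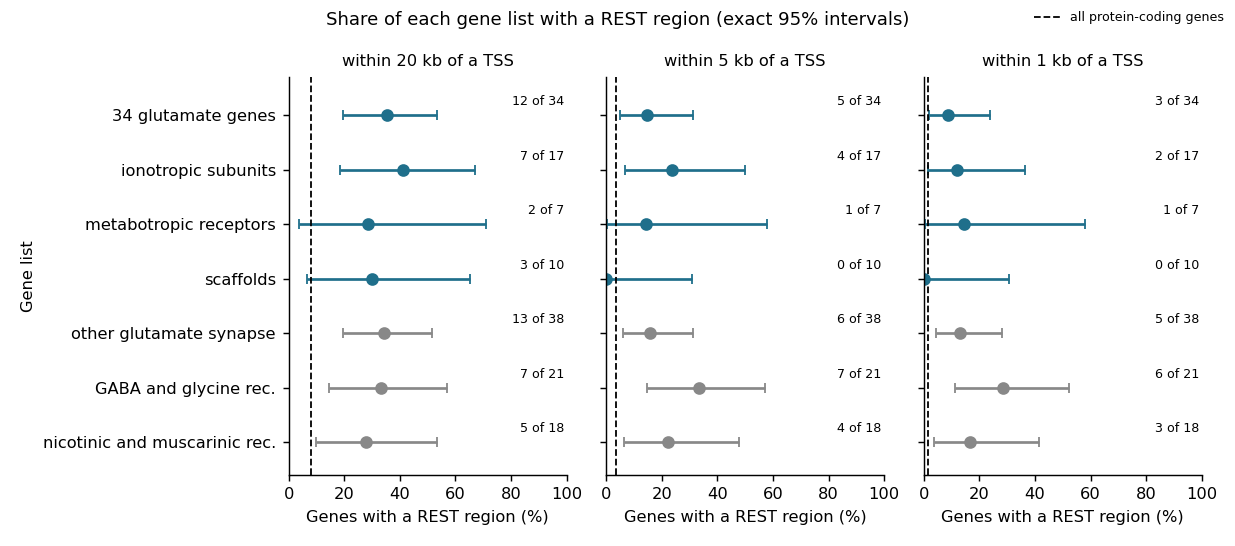
Percentage of genes in each list with a REST region within 20, 5 and 1 kb of a TSS, with exact 95% intervals and the counts beside them. Glutamate receptor and scaffold genes are in blue above the compared lists in grey, the dashed line is the share of all protein-coding genes (8.20, 3.57 and 1.67%), and the share of the 34 genes is 35.3% at 20 kb and 8.82% at 1 kb.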

How the data were processed

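The only file used was the deposited list of REST regions, in which the authors gave the chromosome, start and end of each of 2504 regions and, as a score, its rank by enrichment. DNA was pooled before library construction. Reads were aligned to mm9, with Bowtie and unique reads only per the methods, but with BWA per the submitters' processing notes, and their versions are not stated there. Repeated sequence, where no read is unique, could thus be missing. The methods kept the overlap of PeakRanger and MACS peaks, and whether this list is that overlap is not stated. It holds more regions than the set the study describes, and the relation between these sets is not stated either. Neither is the base from which coordinates count: region coordinates are printed as deposited, the start was treated as counted from 0, and RE1 coordinates count from 1. The depth behind a region is unknown.

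Distances were taken from region midpoints to TSSs of protein-coding transcripts in GENCODE M1 on the NCBIM37 sequence, whose chromosome lengths are those of mm9. Promoter means up to 1 kb upstream of a TSS. A single element was allowed 1 mismatch and a wider gap 3 to 20 bases. The layout of the RE1 was set from background knowledge and its letters were counted from the best-scoring matches in the regions. Intervals are exact Clopper-Pearson 95% intervals and cover counting only. No hypothesis test was run, since there was 1 library. The genes, lists and rules were chosen with earlier results of these data known. All 34 genes were to be named, and of other lists up to 4 genes with the best ranked region. The motif search and the distance counts were tested on simulated data. Alternatives were other distance limits, TSS sets, mismatch limits and window definitions. Python 3.11.15, pandas 2.3.3, NumPy 2.4.6, SciPy 1.17.1, pysam 0.24.0, samtools 1.23.1 and matplotlib 3.10.9 were used.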

Additional observations from a re-analysis of the deposited data

How the results depend on the processing

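Of 18 alternatives to the distance limit, TSS set, rank limit and RE1 definition, 16 left a count within 1.5 times its value, or a share or median within its 95% interval, and 2 moved it farther. These limits are wide. A fall from 12 to 8 genes, at exactly 1.5 times, counted as within them. The intervals ran from 49.2 to 95.3% for the share and from 530 to 1830 for the median rank. A distance limit of 5 kb gave 5 of 34 receptor and scaffold genes in place of 12, and 6 of 38 other glutamate synapse genes in place of 13. At 50 kb the counts were 16 of 34 and 16 of 38. The share of all genes with a region moves with the limit as well, to 3.57% at 5 kb and 15.8% at 50 kb. Counting 1 outermost TSS per gene left 8 of the 34, against 7.55% of all genes, since Grik4, Dlg2, Dlg4 and Shank2 were reached only from inner TSSs, whereas TSSs of all transcripts gave 14, against 8.87% of all genes, by adding Grm4 and Shank1. The 1252 regions of higher rank alone also left 8. Without the region that is nearest to another gene, Dlg4 dropped out and 11 remained, against 5.41% of all genes. The share of regions with a full RE1 ran between 50% at 3 mismatches and 85.7% at 6, and the median rank between 875 and 1145. No paired analysis was possible because there was 1 library. The lack of replicates, of read depth and of an analysed control library limits every value to a description of this list.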
